A study of Mus musculus with 12 samples.

Results

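Alveolar macrophages (AMs) are the resident macrophages of the airspace. They are long-lived cells that clear surfactant and inhaled particles, and they depend on GM-CSF and TGF-β. IL-9 is a cytokine made largely by T cells. Its receptor pairs IL-9Rα, the product of Il9r, with the common γ chain and signals through JAK1, JAK3 and the STAT proteins. MHC class II molecules, which present peptides to CD4 T cells, are held low in resting AMs compared with the interstitial macrophages (IMs) of the lung, and interferon-γ raises them through the transactivator CIITA.

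The data described here are the 4 AM libraries of a series of 12, 2 labelled WT and 2 labelled Il9r-/-, compared over the 14161 autosomal genes of the 14648 genes in the deposited count table. All mice were C57BL/6, were 8 to 16 weeks old and of both sexes, and carried lung tumors of B16, a mouse melanoma line injected into the vein. According to the methods, the WT mice were purchased and the Il9r-/- mice came from another laboratory, so genotype and source cannot be told apart. Macrophages were sorted on CD64, MerTK, CD11c and Siglec-F, and the other 8 libraries are CD11c+ IMs and CD11c- IMs of the same genotypes. Nothing in the sources used here says how many mice stand behind a library and p-values therefore describe how far these libraries scatter, which can be technical scatter. The AM libraries held 30259066 to 42020021 counted reads, and levels are given as CPM, the count scaled to the TMM-adjusted size of its library. According to the methods, lung tumors were analysed 21 days after injection of the B16 cells.

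The AM libraries were above the IM libraries in both AM markers shown. Siglecf, the sorting marker of AMs, was at 616 and 668 CPM in the AM libraries labelled WT and at 686 and 647 CPM in those labelled Il9r-/-. It was at 10.8 to 65.1 CPM in the IM libraries, a difference set by the sort. Chil3, a chitinase-like protein abundant in AMs, was at 28594, 31334, 38499 and 37619 CPM in the AM libraries in the same order. Its level was 787 to 14418 CPM in the IM libraries. Among 8012 autosomal genes with a mean of at least 10 CPM, the root mean square log2 difference was 0.230 between the libraries labelled WT, 0.236 between those labelled Il9r-/-, and 0.257 to 0.361 across the labels. The WT library numbered 1 was the only AM library with more than 0.03 CPM of Xist, at 27.0 CPM, as from a female mouse. The WT libraries numbered 1 of CD11c+ IMs and CD11c- IMs held Xist as well, at 24.2 and 12.5 CPM.

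The targeted gene went against the labels. Il9r (chr11:32188997-32200279, mm10, minus strand) had 23 and 9 counts in the AM libraries labelled WT and 253 and 213 in those labelled Il9r-/-, or 0.627 and 0.326 CPM against 6.60 and 6.82 CPM. Both libraries labelled Il9r-/- were above both labelled WT, by 3.79 on the log2 scale (SE 1.01), with an adjusted p of 0.833 in edgeR's quasi-likelihood test. The adjusted p was 0.00167 in edgeR fitted to the 4 AM libraries alone and 0.0241 in DESeq2. The counts are summed over the gene and do not show which exons were read, so exchanged labels and a mutant allele that is still transcribed cannot be told apart. In CD11c+ IMs the order was alike, with 0.158 and 0.495 CPM under the WT label and 4.34 and 4.19 CPM under the Il9r-/- label. In CD11c- IMs the labels overlapped, since WT library 2 was at 6.47 CPM, beside 0.750 CPM in WT library 1 and 2.59 and 6.09 CPM under the Il9r-/- label. All directions below are therefore those of the labels, and every group is named by its label.

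Of 14161 autosomal genes, 3 passed an adjusted p of 0.05 in AMs (0.0212% of genes), 2 higher in the libraries labelled Il9r-/- (0.0141%) and 1 lower (0.00706%). Wdfy1, an endosomal protein with WD repeats and a FYVE domain, was at 9.35 and 6.69 CPM under the WT label and at 58.6 and 51.8 CPM under the Il9r-/- label. It rose by 2.78 on the log2 scale (SE 0.269, adjusted p = 0.0176, edgeR). Fn3krp, a kinase that removes sugars bound to proteins, was at 0.136 and 0.181 CPM against 8.97 and 10.6 CPM and rose by 5.93 (SE 0.664, adjusted p = 0.0366, edgeR). For both genes the libraries of each label lay close together and far from those of the other.

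Dynlt1b, a light chain of the dynein motor, was at 5.70 and 6.12 CPM under the WT label and at 0.0261 and 0.0641 CPM under the Il9r-/- label, where it had 3 counts in all against 378. The ratio of the levels was 136.3, with an exact 95% interval of 46.3 to 664 that covers counting error only, and the adjusted p was 0.0176 in edgeR's quasi-likelihood test. It has near-identical copies on chromosome 17, so its counts are uncertain. Of the copies, Dynlt1a overlapped between the labels, at 4.36 and 2.61 against 3.36 and 2.98 CPM, and Dynlt1f was at 0.927 and 0.579 against 0.965 and 1.22 CPM, with an adjusted p of 1.00 for each in edgeR. The next gene on the chromosome, Tmem181b-ps, a pseudogene named here after its values were seen, was at 8.29 and 7.63 CPM against 0.261 and 0.0961 CPM (adjusted p = 0.413, edgeR). Its adjusted p was 0.000239 in edgeR fitted to the 4 AM libraries alone and 1.24e-07 in DESeq2.

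The same 3 genes had differences of the same sign in the IMs. The difference between labels was 2.25 in CD11c+ IMs and 0.79 in CD11c- IMs for Wdfy1, 5.31 and 4.15 for Fn3krp, and -6.68 and -2.13 for Dynlt1b, all on the log2 scale (SE 0.251 to 0.663). Of these 6 values, that of Dynlt1b in CD11c+ IMs passed the adjusted threshold (adjusted p = 0.0396, edgeR), Wdfy1 and Fn3krp had an adjusted p of 0.0693 there, and none passed in CD11c- IMs (0.836 to 1.00). In DESeq2, the difference in AMs departed from that in CD11c- IMs by 1.96 for Wdfy1 (SE 0.396, adjusted p = 0.00209) and by -4.98 for Dynlt1b (SE 1.05, adjusted p = 0.00517), and edgeR gave an adjusted p of 1.00 for both. In CD11c- IMs, Dynlt1b was at 2.52 and 1.41 CPM under the Il9r-/- label and at 10.0 and 7.24 CPM under the WT label. Leaving out any 1 of the 4 AM libraries left no gene past the adjusted threshold. The fold changes then ran from 2.56 to 3.04 for Wdfy1, from 5.73 to 6.13 for Fn3krp and from -7.64 to -6.44 for Dynlt1b, and the adjusted p-values from 0.116 to 0.550. Without the WT CD11c- IM library numbered 2, Wdfy1 kept its call (adjusted p = 0.0327, edgeR), while Fn3krp and Dynlt1b had adjusted p-values of 0.0530 and 0.0522.

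**Figure D1:**
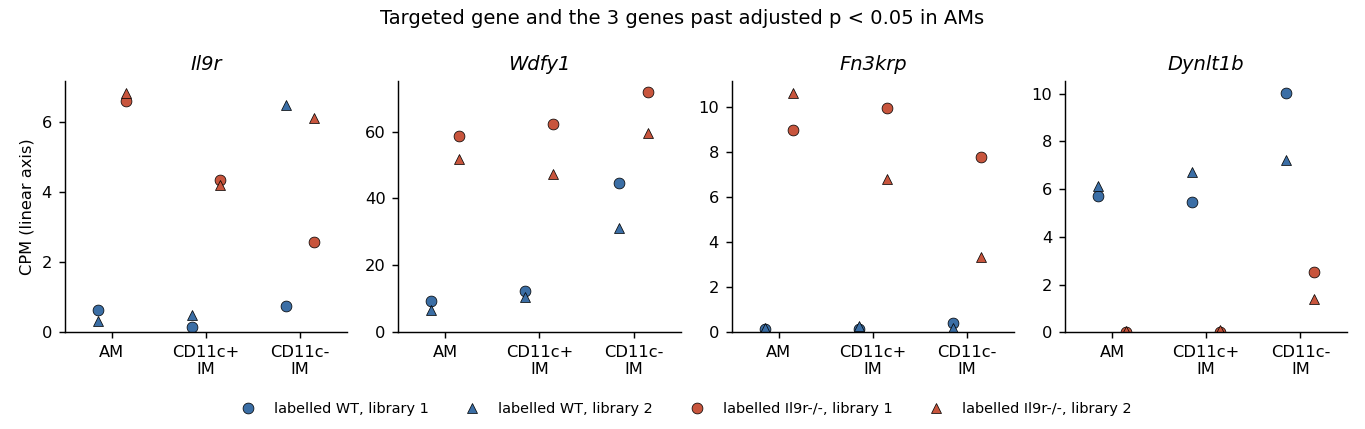
CPM on a linear axis for Il9r and the 3 called genes in each of the 12 libraries, by population, with colour for the label and marker shape for the library number. Il9r, Wdfy1 and Fn3krp were higher under the Il9r-/- label in AMs and CD11c+ IMs, Dynlt1b was lower, and the WT CD11c- IM library numbered 2 stood with those labelled Il9r-/- for Il9r but not for the other 3 genes.

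How many genes were called depended on the libraries that set the spread. With all 12 libraries the common biological coefficient of variation was 0.382, whereas it was 0.194 when the 4 AM libraries were fitted alone with 2 residual degrees of freedom. The AM libraries alone gave 179 autosomal calls at an adjusted p of 0.05 in edgeR (1.26%), 147 lower (1.04%) and 32 higher (0.226%). DESeq2 on all 12 libraries gave 64 (0.452%), 48 lower (0.339%) and 16 higher (0.113%), and 30 genes were called by both alternatives. Under an unadjusted rule, p below 0.05 and an absolute log2 fold change above 1, edgeR on 12 libraries gave 392 genes (2.77%), 287 lower (2.03%) and 105 higher (0.741%) under the Il9r-/- label. Of these, 53 lower and 3 higher genes had a mean of at least 10 CPM in the higher group, and 135 and 67 were under 1 CPM. An unadjusted p alone was below 0.05 in 574 of 14161 autosomal genes in that fit. This is a smaller share than the 0.05 expected with no difference. The number of genes past the unadjusted rule is therefore no evidence of differences by itself.

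**Figure D2:**
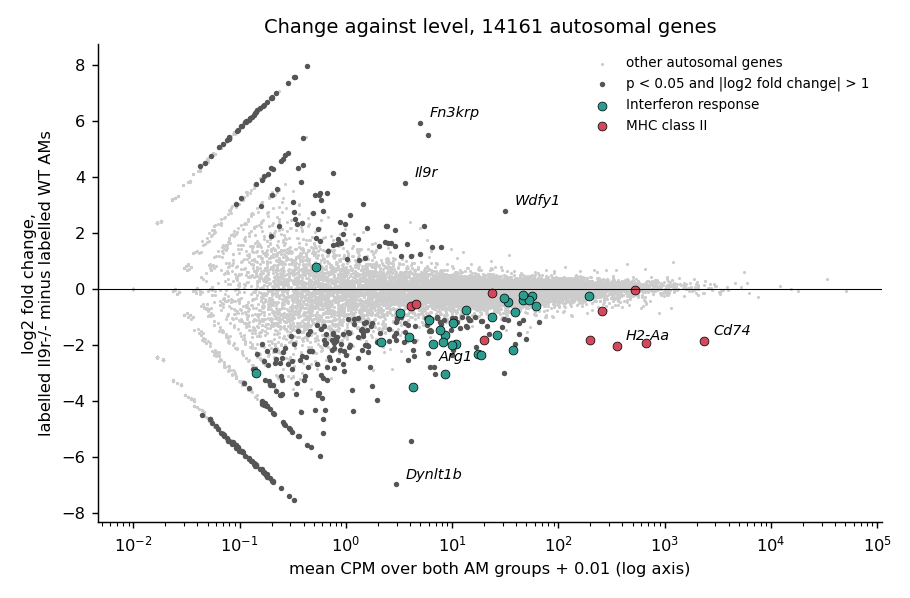
Log2 fold change (labelled Il9r-/- minus labelled WT AMs) against the mean CPM of both groups on a log axis, for 14161 autosomal genes, with dark points past the unadjusted rule and colours for 2 gene lists. Above 10 CPM, 53 genes fell and 3 rose by that rule, and Cd74, H2-Ab1, H2-Aa and H2-Eb1 were the most abundant of those marked as MHC class II that fell.

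Genes of MHC class II were lower under the Il9r-/- label. All 10 members of that list had a negative log2 fold change (49.3% of autosomal genes did), 7 did not overlap between the labels (22.3% of genes were lower without overlap), and 5 passed the unadjusted rule as lower, against 2.03% of all genes. The median of the list was -1.31, beside 0 for all autosomal genes. In the fit of the 4 AM libraries alone, 6 of 10 passed an adjusted p of 0.05 as lower, and in DESeq2 5 of 10 did, whereas none did in the main test. The list was chosen with earlier results of these data known.

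The classical genes sit together on chromosome 17, and their promoters carry a conserved set of boxes that are read by the RFX, CREB and NF-Y proteins with CIITA. The 120 bases before the annotated start are shown, 5′ to 3′ on the strand of the gene, because H2-Aa, H2-Eb1 and H2-DMb1 hold both boxes in this stretch. They come from RefSeq promoters of GRCm38.p6, at chr17:34287824-34287943 on the minus strand for H2-Aa, chr17:34305747-34305866 on the plus strand for H2-Eb1 and chr17:34153071-34153190 on the plus strand for H2-DMb1. Capitals mark GNAACT, the core of the X box, and GATTGG, the reversed CCAAT of the Y box, where they follow each other on a strand with starts 20 to 60 bases apart.
H2-Aa: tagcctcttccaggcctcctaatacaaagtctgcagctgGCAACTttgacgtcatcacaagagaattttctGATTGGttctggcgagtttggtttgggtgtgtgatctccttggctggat
H2-Eb1: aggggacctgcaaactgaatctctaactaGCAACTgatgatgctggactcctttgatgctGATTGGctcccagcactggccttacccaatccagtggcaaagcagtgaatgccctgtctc
H2-DMb1: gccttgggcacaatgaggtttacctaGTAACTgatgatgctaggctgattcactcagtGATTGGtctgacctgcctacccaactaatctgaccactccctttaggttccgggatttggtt

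Within 300 bases around the start, 3 of the 7 MHC class II genes in the promoter table held this pair on either strand. It was in 0.594% of all 32851 promoters and in 0.813% of the 10701 tested autosomal genes matched there. GATTGG alone was in 6 of the 7, in 16.1% of the promoters and in 20.2% of those tested genes. A match describes the letters only.

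The invariant chain Cd74, which escorts class II molecules to the endosome, was at 3304 and 4072 CPM under the WT label and at 1002 and 1034 CPM under the Il9r-/- label. Its log2 fold change was -1.86 (SE 0.259), with an adjusted p of 0.111 in edgeR on 12 libraries, 2.40e-06 in the AM libraries alone and 6.35e-13 in DESeq2. H2-Ab1, the β chain of I-A, was at 951 and 1181 CPM against 243 and 313 CPM. The labels did not overlap for either gene, and the libraries labelled Il9r-/- held less than the lower WT library by a wide margin. H2-Ab1 changed by -1.94 (SE 0.268), with adjusted p-values of 0.111 in the main fit, 0.000252 in the AM libraries alone and 3.20e-11 in DESeq2.

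H2-Aa, the α chain of I-A, was at 501 and 639 CPM against 129 and 151 CPM, a change of -2.03 (SE 0.257), with an adjusted p of 0.0769 in edgeR on 12 libraries. H2-Eb1, the β chain of I-E, was at 274 and 349 CPM against 69.6 and 106 CPM, a change of -1.83 (SE 0.299, adjusted p = 0.231, edgeR). Both passed the adjusted threshold in the AM libraries alone and in DESeq2. Ciita, the transactivator itself, was far less abundant, at 21.8 and 41.0 CPM against 7.61 and 9.93 CPM (log2 fold change -1.84, SE 0.580), and passed in the AM libraries alone (adjusted p = 0.0224, edgeR) but not in DESeq2 (adjusted p = 0.183).

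The genes that load peptide differed among themselves. H2-DMb1, the β chain of the peptide exchange factor H2-DM, named here after its values were seen, was at 316 and 339 CPM against 192 and 187 CPM. Its log2 fold change was -0.79 (SE 0.152), with adjusted p-values of 0.371 in edgeR's main fit, 0.000858 in the AM libraries alone and 9.12e-09 in DESeq2. Its partner chain H2-DMa was at 514 and 556 CPM against 530 and 508 CPM, so the labels overlapped, and its log2 fold change was -0.04 (SE 0.185). Of the remaining members, H2-DMb2 was at 22.3 and 27.9 against 24.4 and 21.1 CPM, and H2-Oa and H2-Ob were under 8 CPM in every AM library. H2-M2, a nonclassical class I gene of chromosome 17 outside this list, was at 16.5 and 8.18 CPM against 0.730 and 2.27 CPM (-3.05, SE 0.754, adjusted p = 0.758, edgeR). H2-M2 passed the adjusted threshold in the AM libraries alone and in DESeq2. The class I list, by contrast, had a median of -0.07, and B2m, the shared light chain of class I, was at 1753 and 1407 CPM against 1624 and 1550.3 CPM.

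**Figure D3:**
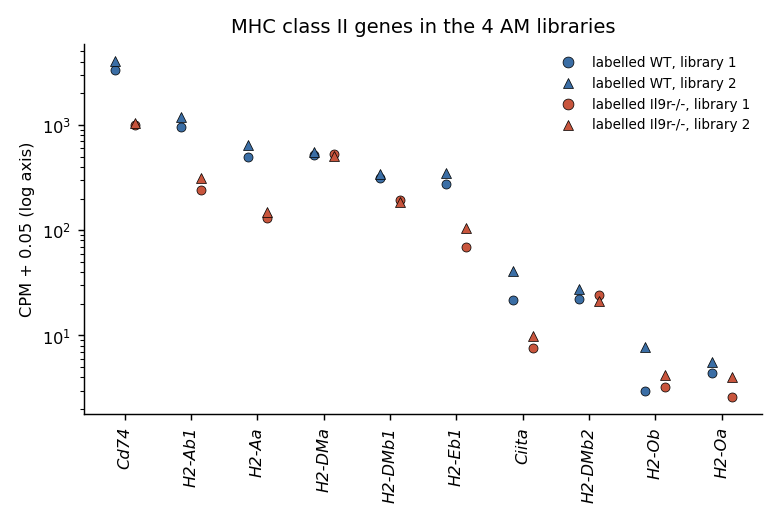
CPM plus 0.05 on a log axis for the 10 MHC class II genes in the 4 AM libraries, ordered by level under the WT label. Cd74, H2-Ab1, H2-Aa, H2-Eb1 and Ciita separate by label, and H2-DMa overlaps.

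The difference was tested against that of the IMs, which express more class II. H2-Aa was at 2945 and 3583 CPM in CD11c+ IMs labelled WT and at 2848 and 4224 CPM in those labelled Il9r-/-, and at 1917 and 1721 against 1859 and 1823 CPM in CD11c- IMs. The labels overlapped in both populations. The median log2 fold change of the list was 0.12 in CD11c+ IMs and -0.05 in CD11c- IMs. In AMs the log2 fold change of H2-Aa lay below its change in CD11c+ IMs (difference -2.14, SE 0.354, adjusted p = 0.613, edgeR) and its change in CD11c- IMs (difference -2.04, SE 0.353, adjusted p = 1.00, edgeR), and neither test passed the adjusted threshold.

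In edgeR, no autosomal gene passed an adjusted p of 0.05 in either test of a difference between populations (0% in both). Of 14161 autosomal genes, 398 passed an unadjusted p of 0.05 against CD11c+ IMs and 328 against CD11c- IMs. Both are smaller shares than the 0.05 expected with no difference, so these counts are no sign of differences. In DESeq2, 18 genes (0.127%) and 11 genes (0.0777%) passed, and 7 were in both sets, namely Ccl17, Cd74, H2-Aa, H2-Ab1, H2-DMb1, H2-Eb1 and Irgm2. For Cd74 the DESeq2 difference was -1.996 (SE 0.319, adjusted p = 2.98e-06) against CD11c+ IMs and -1.84 (SE 0.319, adjusted p = 5.81e-05) against CD11c- IMs. Irgm2, an interferon-induced GTPase, was at 16.04 and 12.5 CPM in AMs labelled WT against 4.85 and 5.54 CPM. Ccl17, a chemokine for T cells that carry CCR4, was at 7.36 and 5.46 CPM against 2.66 and 2.43 CPM.

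Markers of IMs and monocytes are given beside these values because IMs hold several times more class II RNA. The list of 30 IM and monocyte markers had a median of -0.43, and its 4 members past the unadjusted rule were Cd74, H2-Ab1, H2-Aa and H2-Eb1 themselves. Of its other 26 members, 17 had a negative log2 fold change, none passed the rule and the median was -0.32. Their summed level was 2591 and 2532 CPM under the WT label and 2502 and 2777 CPM under the Il9r-/- label. Cd14 was part of this sum and was higher under the Il9r-/- label, at 915 and 889 CPM against 1187 and 1227 CPM. Of all 30 markers, 14 were lower without overlap, class II included, and 4 higher (22.3% of all genes in each direction). C1qb, a complement chain of IMs, was at 15.7 and 16.3 CPM against 7.25 and 11.7 CPM in AMs, and at 881 to 3863 CPM in IMs. None of 14 dendritic cell and 7 B cell genes passed the rule, with medians of -0.33 and -0.43 and summed levels of 59.7 and 79.5 against 39.8 and 73.3 CPM and of 33.9 and 61.9 against 24.98 and 41.5 CPM. The part of such cells in the class II values was not tested.

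**Figure D4:**
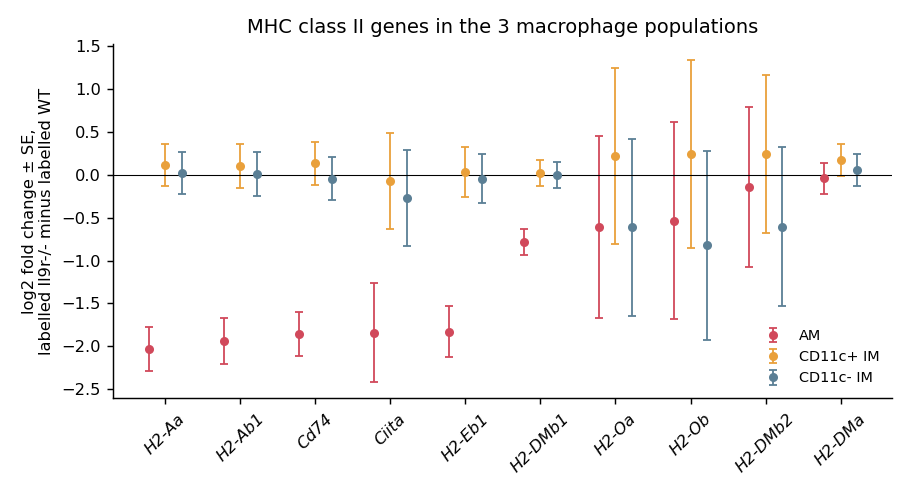
Log2 fold change (labelled Il9r-/- minus labelled WT) with its SE for the 10 MHC class II genes in AMs, CD11c+ IMs and CD11c- IMs. H2-Aa, H2-Ab1, Cd74, Ciita and H2-Eb1 lie between -2.03 and -1.83 in AMs, while their values in both IM populations lie between -0.27 and 0.13.

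Genes of the interferon response, which cells switch on when interferon binds its receptors, were lower as well, but unequally over the WT libraries. Of 30 list members, 29 had a negative log2 fold change, 23 were lower without overlap (22.3% of all genes) and 14 passed the unadjusted rule as lower (2.03% of all genes). The median was -1.33. In the fit of the AM libraries alone 1 member passed the adjusted threshold, and 2 did in DESeq2. The summed level was 1263 and 702 CPM under the WT label and 556 and 633 CPM under the Il9r-/- label, so the WT library numbered 1 stood above the other 3.

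The promoters of 3 of these genes are shown because they hold the core of the interferon-stimulated response element, GAAA, any 2 bases and GAAA again, in capitals on either strand, in a stretch of 120 bases upstream of the start. They lie at chr19:34640719-34640838 on the plus strand for Ifit1, chr19:34583359-34583478 on the plus strand for Ifit3 and chr12:26456503-26456622 on the minus strand for Rsad2 (RefSeq, GRCm38.p6), each 5′ to 3′ on the strand of the gene.
Ifit1: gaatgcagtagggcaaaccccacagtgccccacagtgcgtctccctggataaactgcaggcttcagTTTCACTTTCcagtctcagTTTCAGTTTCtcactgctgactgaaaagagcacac
Ifit3: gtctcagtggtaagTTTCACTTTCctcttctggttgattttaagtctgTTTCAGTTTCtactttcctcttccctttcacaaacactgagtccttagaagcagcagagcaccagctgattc
Rsad2: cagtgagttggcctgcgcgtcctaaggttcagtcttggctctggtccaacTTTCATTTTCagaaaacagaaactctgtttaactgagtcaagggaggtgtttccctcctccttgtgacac

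The motif, searched on both strands of 300 bases, was in 14 of the 23 interferon response genes matched in the promoter table. It was in 0 of the 7 MHC class II genes, in 3.44% of all promoters and in 3.17% of the tested autosomal genes matched. Among the 209 matched genes that were lower by the unadjusted rule, 20 held it (9.57%), interferon response genes included.

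Irf7, the factor that amplifies the response, was at 94.5 and 27.9 CPM under the WT label and at 9.67 and 17.6 CPM under the Il9r-/- label (-2.17, SE 0.858, adjusted p = 1.00, edgeR). Ifit3, which binds viral RNA complexes with Ifit1, was at 43.6 and 15.2 CPM against 5.63 and 6.18 CPM (-2.32, SE 0.697). Oasl1, a repressor of Irf7 translation, was at 12.0 and 3.76 CPM against 0.5998 and 0.801 CPM (-3.50, SE 0.833). It passed the adjusted threshold in the AM libraries alone and in DESeq2, but not in the main fit. In Irf7, Ifit3 and Oasl1, WT library 1 was about 3 times WT library 2. The gap between WT library 2 and the higher library labelled Il9r-/- was narrower for Irf7 than for Oasl1.

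Ifit2, which restrains translation of viral RNA, was at 22.5 and 7.74 CPM against 2.32 and 1.35 CPM and changed by -3.04 (SE 0.606, adjusted p = 0.414 in the main fit and 0.000210 in DESeq2). Irf1, a transcription factor of the same response, was nearer across the labels, at 62.6 and 59.2 against 48.3 and 53.4 CPM. Without the WT AM library numbered 1, 2 of 30 members passed the unadjusted rule and the list median was -0.53, and the log2 fold changes were -1.03 for Irf7, -1.36 for Ifit3, -2.43 for Oasl1 and -2.07 for Ifit2. The count was 4 without Il9r-/- library 1, 7 without Il9r-/- library 2 and 16 without WT library 2, and the medians were -1.04, -1.93 and -1.79. With the same WT library left out, MHC class II had 5 members past the rule and a median of -1.54.

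**Figure D5:**
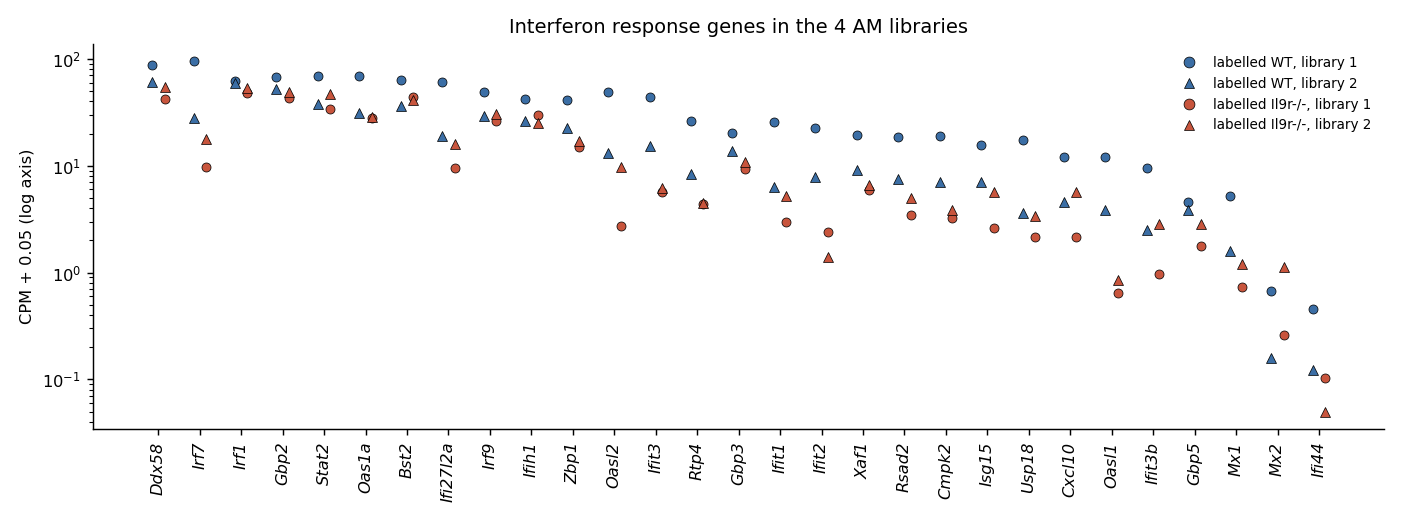
CPM plus 0.05 on a log axis for 29 of the 30 interferon response genes in the 4 AM libraries, ordered by level under the WT label. WT library 1 lies highest for nearly all members, for example Irf7 at 94.5 CPM, while Oasl1 lies at 12.0 and 3.76 CPM under the WT label and below both under the Il9r-/- label.

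Melanocyte transcripts moved with the same library. Of 13 tested melanocyte and B16 genes, 12 had a negative log2 fold change (49.3% of all genes) and 2 passed the unadjusted rule as lower (2.03% of all genes), with a list median of -1.43. Tyrp1, a melanin enzyme, was at 109 and 44.5 CPM under the WT label and at 23.6 and 20.4 CPM under the Il9r-/- label. The summed level of the list was 363 and 157 CPM against 112 and 90.3 CPM, and without WT library 1 none passed the rule and the median was -0.22. Without either library labelled Il9r-/- none passed as well, and without WT library 2 6 passed. In bulk samples, fewer cells of a type and less RNA per cell cannot be told apart, and the part of B16 RNA in the interferon and other results was not tested.

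Arg1, the arginase that depletes arginine, was at 11.5 and 10.1 CPM against 1.33 and 1.83 CPM, a change of -2.78 (SE 0.624). The labels did not overlap, and the adjusted p was 0.704 in the main fit, 0.00145 in the AM libraries alone and 0.000967 in DESeq2. The IMs held far more Arg1, at 143 to 835 CPM under the WT label and 89.3 to 269 CPM under the Il9r-/- label. The difference of its change in AMs was -1.24 (SE 0.815, adjusted p = 1.00, edgeR) from that in CD11c+ IMs and -1.56 (SE 0.817, adjusted p = 1.00, edgeR) from that in CD11c- IMs.

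Mmp14, a membrane-bound collagenase, was at 80.5 and 28.3 CPM against 6.86 and 6.79 CPM (-2.99, SE 0.684). Mmp12, the macrophage elastase, was at 64.1 and 61.0 CPM against 15.8 and 16.4 CPM (-1.96, SE 0.585). The labels did not overlap for either, and Mmp12 had nearly equal libraries within each label. Without the WT AM library numbered 1, the log2 fold change of Mmp14 was -2.05. The adjusted p of Mmp12 was 0.923 in the main fit and 1.22e-05 in the AM libraries alone, while Mmp14 passed in DESeq2 (adjusted p = 0.00109) and not in the AM libraries alone (adjusted p = 0.269).

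Of the 25 tested angiogenic factors, 4 passed the unadjusted rule as lower (Mmp14, Mmp12, Mmp2 and Pdgfb, against 2.03% of all genes) and none as higher (0.741%), with a median of -0.21. Met, the hepatocyte growth factor receptor, was at 16.99 and 6.69 CPM against 1.85 and 1.54 CPM (-2.80, SE 0.539), and Mfge8, a bridge for the uptake of apoptotic cells, was at 78.6 and 48.8 CPM against 19.01 and 22.3 CPM (-1.63, SE 0.378). Mfsd6, a transporter-like membrane protein that has been linked to MHC class I binding, was at 28.3 and 26.3 CPM against 4.85 and 8.04 CPM (-2.08, SE 0.441). Without the WT AM library numbered 1, the log2 fold change of Met was -1.98. Met, Mfge8 and Mfsd6 each separated by label. None of them passed the adjusted threshold in the main fit, while each passed it in the AM libraries alone and in DESeq2.

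Among 35 cytokines and chemokines, 4 passed the unadjusted rule as lower (Ccl17, Ccl24, Cxcl9 and Cxcl16, against 2.03% of all genes) and Il6 as higher (0.741% of all genes), and the median was 0.13. Ccl24, an eotaxin, was at 3.57 and 2.89 CPM against 0.235 and 0.352 CPM. Il6 was at 2.62 and 3.29 CPM under the WT label and at 6.52 and 7.37 CPM under the Il9r-/- label, a change of 1.23 (SE 0.307, adjusted p = 0.764, edgeR). It passed the adjusted threshold in none of 16 alternatives. Osm, a cytokine of the IL-6 family, was at 465 and 522 CPM against 789 and 823 CPM (0.71, SE 0.332, adjusted p = 1.00, edgeR), and passed in the AM libraries alone.

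In the IL-9 signalling list, small decreases were common beside the higher level of the receptor itself. Of 21 tested members, Il9r alone passed the unadjusted rule. A negative log2 fold change was found in 17 (49.3% of all genes), and 12 were lower without overlap (22.3% of all genes). The median was -0.21, or -0.18 relative to genes of like exon length, and it was 0.10 in both IM populations. Cish, a STAT5 target that feeds back on cytokine receptors, was at 53.3 and 55.6 CPM against 69.2 and 82.1 CPM, and Stat5b was at 99.2 and 111 CPM against 70.0 and 88.8 CPM. Among 8 genes named by the paper for IMs that lack the receptor, Nnt, the mitochondrial transhydrogenase, was at 79.2 and 67.8 CPM against 112 and 108 CPM (0.58, SE 0.218, adjusted p = 1.00, edgeR).

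The genes of AM identity changed little in size, and more of them were higher than lower under the Il9r-/- label. The log2 fold change was positive in 20 and negative in 10. Without overlap, 15 were higher and 5 lower (22.3% of all genes in each direction). Of 30 genes listed for AM identity, 1 passed the unadjusted rule, Car6, at 2.13 and 2.497 CPM against 1.04 and 0.609 CPM. The median of the list was 0.14, or 0.07 relative to genes of like exon length. In the AM libraries alone, 3 members passed the adjusted threshold as higher, Chil3 among them, and none as lower. Car6 did not mark AMs here, at 36.1 to 103 CPM in CD11c- IMs and 2.15 to 14.2 CPM in CD11c+ IMs. The part of other cells in its AM values was not tested. Itgax, the gene of CD11c, was at 778 and 801 CPM against 488 and 608 CPM (-0.53, SE 0.312, adjusted p = 1.00, edgeR), and it passed in the AM libraries alone. The median was 0.03 over 15 genes of the GM-CSF and TGF-β pathway, 0.09 over 29 of surfactant and lipid handling, -0.02 over 28 of the lysosome and 0.04 over 34 of proliferation. None of those 4 lists had a member past the unadjusted rule.

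Most markers of endothelium and lung epithelium were higher under the Il9r-/- label. The log2 fold change was positive in 17 of 23 and 17 of 20, with medians of 0.79 and 0.69. Without overlap, 12 and 9 were higher and 3 of each were lower (22.3% of all genes in each direction). Of 23 endothelial genes, 5 passed the unadjusted rule as higher (0.741% of all genes), for example Egfl7, a secreted factor of vessels, at 0.764 and 1.41 CPM against 6.18 and 3.14 CPM, while the summed level was 367 and 374 CPM against 333 and 300 CPM. That sum includes Cav1, at 146 and 126 against 102 and 93.6 CPM, and Flt1, at 117 and 129 against 93.4 and 88.1 CPM. Of 20 lung epithelial genes, 5 passed as higher and 1 as lower. Bpifa1, a secreted airway protein, was at 0.409 and 0.0724 CPM against 19.6 and 3.72 CPM. Epcam was at 165 and 189 CPM against 103 and 76.2 CPM, and at 6.04 to 24.2 CPM in the IM libraries. The part of such cells in the other results was not tested.

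The remaining lists gave few calls by the unadjusted rule, by which 2.03% of all genes were lower and 0.741% higher. Among 23 genes of glycolysis and hypoxia 1 was lower, Ndrg1, with a median of -0.19, and among 23 checkpoint and suppressive genes 1, again Arg1, with a median of -0.11, which was also the single lower gene among 14 of arginine and polyamine metabolism (median 0.00, 0.0014). The median was 0.01 over 30 antioxidant genes, 0.07 over 29 immediate early and heat shock genes, 0.02 over 23 complement and scavenger receptors and -0.06 over 15 of iron and heme, with no member past the rule. All 13 neutrophil genes were positive, as were 6870 of 14161 autosomal genes. Their median was 0.73 and their summed level 205 and 245 CPM against 279 and 362 CPM, and none passed. Of 17 T and NK cell genes, Cd4 was lower (median 0.00, 0.0027). Among low markers of 16 fibroblast, 10 mast cell and 4 erythroid or platelet genes, 2, 1 and 1 were higher.

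The difference between labels also followed exon length. Among autosomal genes with a mean of at least 10 CPM, the median log2 fold change was 0.18 in 539 genes of up to 1000 bases, 0.12 in 1785 genes of 1000 to 2000 bases, -0.17 in 2073 genes of 4000 to 8000 bases and -0.19 in 345 longer genes. The library labelled Il9r-/- and numbered 1 deviated most, with a median of 0.16 above the mean of the 4 libraries in the shortest class and -0.13 in the longest, and Il9r-/- library 2 lay at 0.03 and -0.07. Both WT libraries lay on the other side, WT library 1 at -0.07 and 0.09 and WT library 2 at -0.11 and 0.12. Of the 128 lower genes in the AM libraries alone with at least 10 CPM, 102 were longer than 4000 bases, and the 128 had a median exon length of 6002.5 bases beside 2891.5 for all. The part of length in these calls was not tested.

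The medians of gene lists were also taken relative to genes of the same length class. Oxidative phosphorylation, with a median length of 1036 bases, had 29 of 30 members positive and a median of 0.13, and relative to genes of the same length class its median was 0.00 (-0.0047). For the unfolded protein response the median was 0.21 and 0.15 relative to length, and for cholesterol synthesis 0.19 and 0.18. The MHC class II genes had a median length of 1349.5 bases, in a range where the typical gene was slightly higher, and their median was -1.31 and -1.29 relative to length. For the interferon response the medians were -1.33 and -1.44.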

How the data were processed

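RNA was sequenced from sorted lung macrophages with the SMART-Seq V4 kit, which keeps no strand information. The authors used STAR 2.5 and mm10 for alignment and featureCounts (Subread 1.5.1, with a strand option set) over refGene genes for counting, and low-CPM genes were dropped. Reads of a gene and its antisense partner therefore cannot be told apart. The deposited counts were used as given. The deposited log2 FPKM values and the authors' comparisons (fold changes, p-values) were not used. Each count column matched a sample by name.

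Counts were fitted with edgeR 4.0.16 (TMM, robust quasi-likelihood, R 4.3.3) on all 12 libraries as 6 groups of 2, with 6 residual degrees of freedom, and p-values were adjusted by Benjamini-Hochberg over 14648 genes. Genes on X and Y stayed in the fit and were left out of counts and text. A standard error is the size of the log2 fold change divided by the square root of F. Values in brackets after a gene are its log2 fold change and SE, and adjusted p-values without a named tool are from this fit. DESeq2 1.42.0 was an alternative. The code was tested on simulated data with a biological coefficient of variation below the 0.382 of this fit. That test does not show how many differences the fit misses at 0.382. The depth was 26988617 to 42020021 counts per library. Groups of 2 limit the precision.

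Named genes were Il9r, the sorting markers, genes the paper names, up to 15 per direction past an adjusted p of 0.05 (mean CPM of at least 5) or, by lowest p, past the unadjusted rule (mean CPM of at least 10), without overlap, and members of 34 gene lists that passed a rule or were among the 3 most abundant. Other members were named after their values were seen. The length classes and the alternative without a CD11c- IM library were chosen after seeing the data. Members and lists were chosen with earlier results of these data known. Promoter sequences and motif counts used the RefSeq table of GRCm38.p6, and a gene without an entry there is named only. Figures were drawn with matplotlib 3.10.9. Values of some list members are not reported here, while list counts and medians include them.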

Additional observations from a re-analysis of the deposited data

How the results depend on the processing

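The 18 genes followed through all 16 alternatives, among them Il9r, the 3 called genes and 6 of MHC class II, kept their direction in each. Their AM libraries did not overlap between the labels, so these alternatives had little room to reverse a direction. The kept direction is therefore no test of these genes. The counts at an adjusted p of 0.05, 2 higher and 1 lower in the main fit, were 32 and 147 in the 4 AM libraries alone, 16 and 48 in DESeq2, and 1 and 0 with a term for the 3 WT libraries numbered 1. They were 0 and 0 when those 3 libraries were left out. Leaving out 1 library gave 0 to 1 higher and 0 to 0 lower, the 1 being Wdfy1 without the WT CD11c- IM library numbered 2, an alternative chosen after seeing the data. Genes past the unadjusted rule, 105 higher and 287 lower, were 32 and 128 with a minimum of 1 CPM in 2 AM libraries. They were 166 lower without the 3 WT libraries numbered 1, and leaving out 1 library gave 94 to 130 higher and 179 to 351 lower. The tests against CD11c+ and CD11c- IMs gave 0 genes in edgeR, and 18 and 11 in DESeq2. The cause of these shifts was not tested.

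The sources do not say what the library numbers mark, and they did not pair the AM libraries. Deviations of same-numbered AM libraries of the 2 labels correlated at 0.03 over 12076 genes. The correlation was 0.51 in CD11c+ IMs and 0.61 in CD11c- IMs, and 0.15 to 0.26 between AM and IM libraries of a label and number. Xist was at 27.0, 24.2 and 12.5 CPM in the WT libraries numbered 1 of AMs, CD11c+ IMs and CD11c- IMs. It was at most 0.0478 CPM in every other library. Whether libraries of a label and number came from the same mice was not tested. The main fit and DESeq2 treated such libraries as independent, also in the tests between populations. With the library number as a replicate block, the count of lower genes was 6 on all 12 libraries, namely Dynlt1b, H2-Aa and H2-Ab1 (adjusted p = 0.0242 each, edgeR), Cd74 and Mmp14 (0.0279 each) and Ciita (0.0333), with 2 higher, and it was 295 lower and 75 higher in the AM libraries alone, with 1 residual degree of freedom.

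Scaling by RLE factors or library size, leaving out X and Y genes before the fit, and a minimum of 0.5 CPM in 2 libraries, which every gene met, kept the counts within 1.5 times, and no scaling moved the median of all genes by over 0.1. Genes below 1 CPM, 202 of the 392 past the unadjusted rule, rest on few reads.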
